A study of Mus musculus with 10 samples.

Results

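The genes described here are 45 mouse genes of ribosome biogenesis and of nucleotide and polyamine synthesis, out of 23924 gene symbols in each of 2 expression tables. They were taken by name from a list: 35 act in the nucleolus on ribosomal RNA and ribosomal subunits, and 10 are enzymes that make purines, pyrimidines, nucleoside triphosphates or polyamines. All 45 had a row in both tables, and all 45 passed the filter on low values in both. The list was chosen with earlier results of these data known, so comparisons of members with all genes are descriptions and not tests.

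RNA came from pancreatic tumours transplanted into the pancreas of athymic nude mice, hosts that lack a thymus and the T cells that mature there. The tumours were of 2 models, named KrasT and MycT. Untreated hosts (0 days of doxycycline) carried 3 KrasT and 2 MycT tumours. The other hosts, with 3 KrasT and 2 MycT tumours, had drunk doxycycline at 100 ug/ml with 2.5% sucrose for 14 days, which turns the driving oncogene off according to the title of the study. How the transgenes were built, which cells carry them, whether each model is 1 line and whether untreated hosts drank sucrose is unstated in the labels, and so are the age and sex of the hosts. Effects of doxycycline, of sucrose and of loss of the oncogene therefore cannot be told apart. Whole tissue was sequenced, so fewer cells of a type and less RNA per cell cannot be told apart either. Every tumour has a different animal number, but the labels leave unsaid whether tumours came from separate donor tumours, so p-values measure the spread between these tumours only.

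Making ribosomes begins in the nucleolus, where RNA polymerase I copies ribosomal DNA into a long precursor. Small nucleolar ribonucleoproteins (snoRNPs) modify that precursor, and assembly factors cut it, fold it and load ribosomal proteins onto the 2 subunits. Purines and pyrimidines are the building blocks of this RNA, and polyamines are small cations that bind RNA. Many of these genes are textbook targets of MYC, a transcription factor that binds the E-box letters CACGTG together with its partner MAX.

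Promoters were read first for those letters, because the members are compared here in a model named for MYC. A RefSeq table of promoters on the GRCm38.p6 build (250 bases before the start of the gene to 50 after it) had an entry for 39 of the 45 members. CACGTG, which reads the same on both strands, was present in 8 of the 39 (20.5%), against 8.09% of 27025 genes in the table and 11.6% of 9565 genes that were also tested in KrasT. In the 250 bases before the start alone, 5 of 39 members held it (12.8%), against 6.86% and 9.71%. A related set of letters that is also its own reverse complement, CAGCTG, was in 17.9% of members, 18.3% of all genes and 18% of the tested genes. Member windows held a median of 24 CG pairs, against 7 over all genes and 21 over the tested genes, so the members share CG-rich starts with other expressed genes. The 9 occurrences are shown with 10 bases on each side, 5′ to 3′ on the strand of the gene, with the E-box in capitals.
Impdh2: gctcgataagCACGTGgttacccagc
Nme1, downstream start: cttgatacgcCACGTGggctcgcctt
Nme1, upstream start: tgcggggaacCACGTGaggccgggga
Nop2: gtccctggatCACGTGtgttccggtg
Paics: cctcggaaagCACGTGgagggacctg
Pes1: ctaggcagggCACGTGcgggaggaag
Tsr1: acttggtgcaCACGTGgactgcagaa
Utp18: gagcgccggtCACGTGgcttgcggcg
Wdr43: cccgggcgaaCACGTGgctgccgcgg
On GRCm38.p6 these stretches lie at chr9:108560316-108560341 (plus strand, Impdh2), chr11:93968039-93968064 and chr11:93968275-93968300 (minus strand, Nme1) and chr6:125131813-125131838 (plus strand, Nop2). The others lie at chr5:76951089-76951114 (plus strand, Paics), chr11:3963967-3963992 (plus strand, Pes1), chr11:74898094-74898119 (plus strand, Tsr1), chr11:93885771-93885796 (minus strand, Utp18) and chr17:71616222-71616247 (plus strand, Wdr43). In Pes1, Tsr1 and Wdr43 the motif begins at base 3, 25 and 18, counting the first transcribed base as 1, and in the others it begins 18 to 203 bases before a start.

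The 250 bases before the upstream start of Nme1 (chr11:93968273-93968522, minus strand) are shown because Nme1 is the member with CACGTG at 2 annotated starts and is among the strongest falls in KrasT; capitals mark the E-box.
Nme1: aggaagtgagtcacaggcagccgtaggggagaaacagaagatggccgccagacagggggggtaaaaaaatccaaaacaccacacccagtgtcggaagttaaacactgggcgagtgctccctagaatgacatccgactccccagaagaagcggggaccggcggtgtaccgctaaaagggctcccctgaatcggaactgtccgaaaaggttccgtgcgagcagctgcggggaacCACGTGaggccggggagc

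Across all 10 libraries the members were lower after doxycycline in both models, and the untreated MycT tumours stood far above the rest. Their summed level, in FPKM (fragments per length of gene and per mapped fragment), was 2395, 2429 and 1974 in the untreated KrasT libraries and 1065, 1199 and 1065 after doxycycline. The MycT sums were 6220 and 7221 untreated and 1258 and 1535 after doxycycline. The groups did not overlap in either model, and total FPKM was also lower in every doxycycline library. After doxycycline the MycT sums (1396 ± 196 SD, n = 2) were near the KrasT ones (1109 ± 77.5 SD, n = 3), although the 2 tables may have been normalized separately. By untreated group mean, Npm1 was the highest member in both models, and the lowest were Rrp12, Heatr1 and Polr1e in KrasT and Polr1a, Bysl and Rrp12 in MycT.

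**Figure D1:**
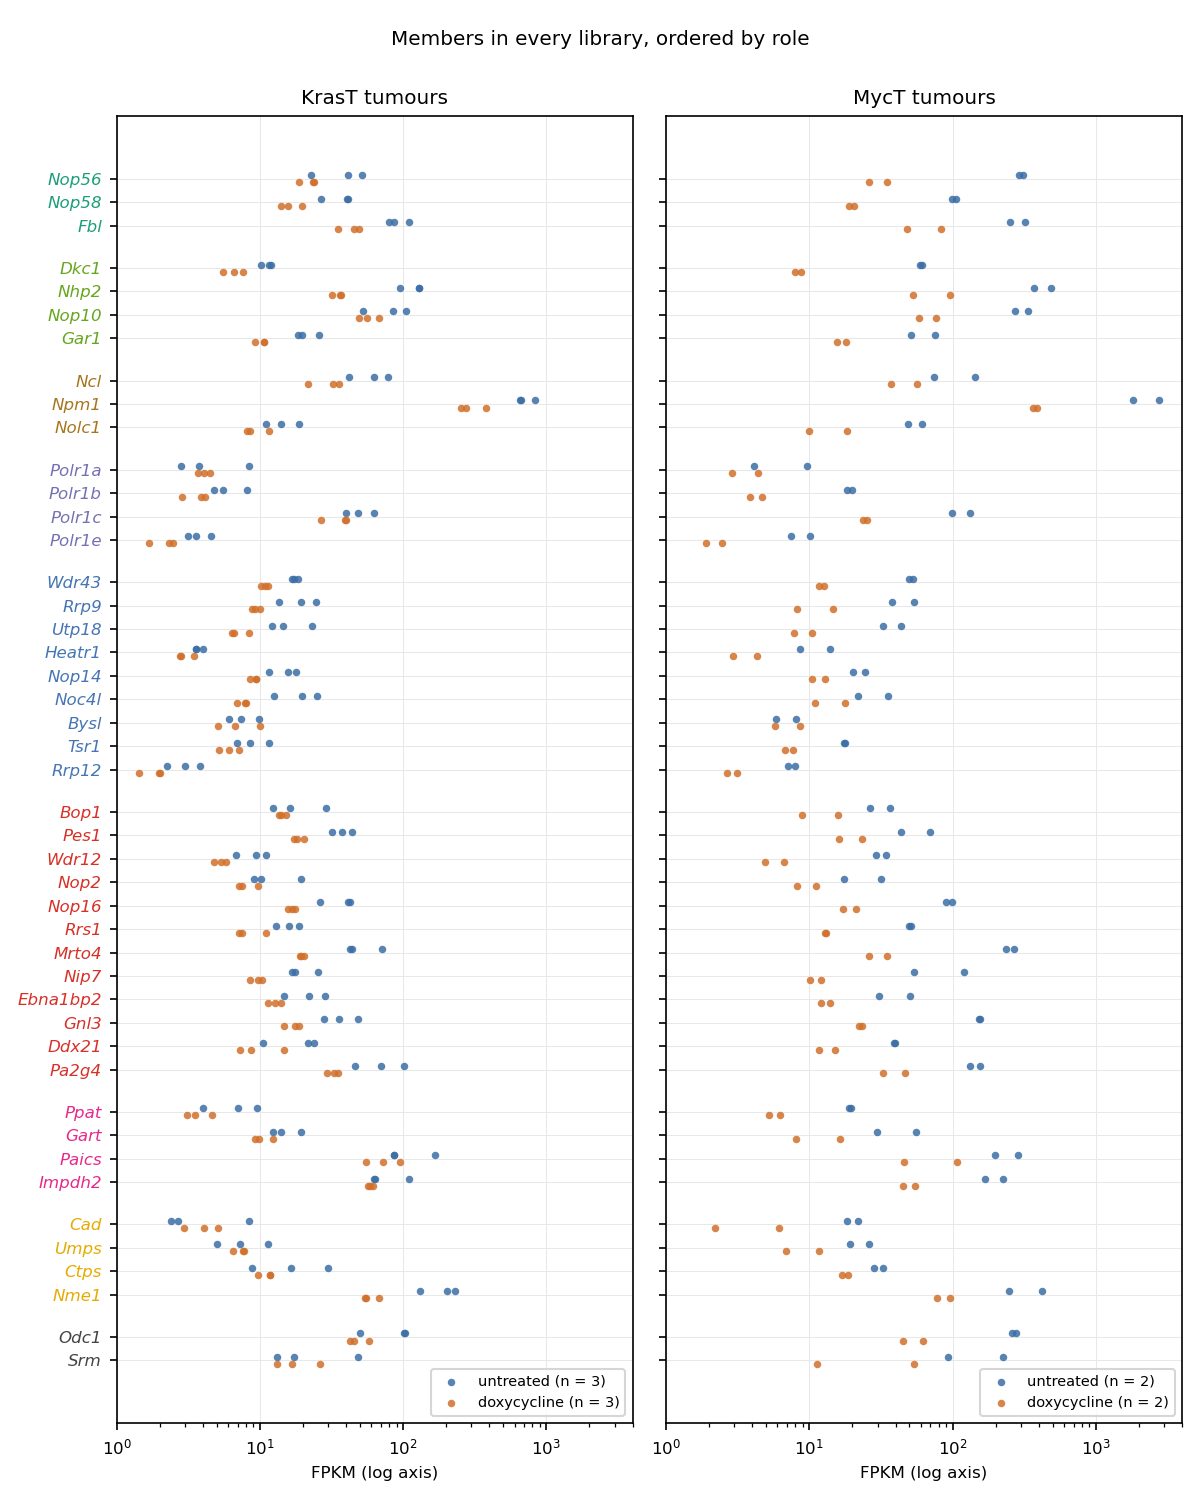
FPKM (log axis) of each of the 45 members in every library, KrasT on the left and MycT on the right, untreated in blue and doxycycline in orange, with members ordered by role and names coloured by role. In MycT 43 of 45 members have both untreated points above both doxycycline points, and in KrasT 28 of 45 have all untreated points above all doxycycline points. Over all genes tested that order held for 32.8% in MycT and 23% in KrasT, and the opposite order for 31.9% and 16.8%.

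In KrasT, 12 of 45 members fell and 0 rose (limma on log2(FPKM + 1), Benjamini-Hochberg adjusted p under 0.05 over 12696 genes), where 8.25% of all genes tested fell and 8.46% rose. The 12 were Nop58, Fbl, Nhp2, Gar1, Npm1, Noc4l, Pes1, Nop16, Mrto4, Nip7, Gnl3 and Nme1. The log2 change was negative for 44 of 45 members, with a median of -0.68 against -0.10 over all genes, and for 42 with median-ratio scaling and 43 with quantile normalization. Groups did not overlap, with doxycycline lower, for 28 of 45 members, against 23% of all genes, and no member showed the opposite order, which 16.8% of all genes did. The count rested on single libraries: leaving out untreated replicate 1 gave 21 members, and leaving out any other library gave 0 or 1. It was 5 under median-ratio scaling, when Fbl, Nhp2, Npm1, Mrto4 and Nme1 passed, 3 under quantile normalization and 26 with library weights. The count over all genes moved as well: 1047 fell and 1074 rose as reported, 701 fell and 1150 rose under median-ratio scaling, with the median of all genes at 0.01, and 3196 fell with library weights. Without untreated replicate 1, 2188 genes fell, and without any other library 22 to 130 did.

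In MycT the falls were larger, but with 2 libraries a group no member passed on the MycT table alone. The median log2 change of the members was -1.88 against 0.04 over all 12834 genes tested, and 44 of 45 members were negative. The smallest adjusted p was 0.0638 (limma), and 40 of 45 members had an unadjusted p under 0.05 in the direction of a fall, against 17.6% of all genes. Only 0.0312% of all genes fell and 0.00779% rose at an adjusted p under 0.05 in that fit. Groups did not overlap for 43 of 45 members, all lower after doxycycline, against 32.8% of genes lower and 31.9% higher. In 1 limma fit over both tables, in which the 4 groups share an estimate of the spread, 35 of 45 members fell in MycT and 0 rose, against 12.3% and 8.11% of 12073 genes. That joint fit assumes that the MycT libraries vary like the KrasT ones. Leaving out 1 MycT library at a time leaves 1 in a group, so only sizes are given for those fits. Their member medians were -1.71 to -2.03, against -0.05 to 0.08 over all genes. In the joint fit of all libraries 14 members fell in KrasT, against 9.09% of genes, and 0 rose, against 7.94%.

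The members that fell in KrasT and in the MycT joint fit were 11 in number, which is 11 of 12 KrasT calls and 11 of 35 MycT calls. Noc4l was the exception among the KrasT calls. Neither fit called 9 members, namely Ncl, Polr1a, Nop14, Bysl, Bop1, Nop2, Umps, Ctps and Srm. For 43 of 45 members the MycT change was the more negative one, with a median difference of -1.08 against -0.01 over all genes. Tested directly as an interaction, 0 of 45 differences passed (limma, smallest adjusted p 0.0527, for Dkc1), where 0.24% of all genes did. At an unadjusted p under 0.05, 23 of 45 members were more negative in MycT, against 9.45% of all genes. The difference between models is therefore given as a value and not as a call.

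**Figure D2:**
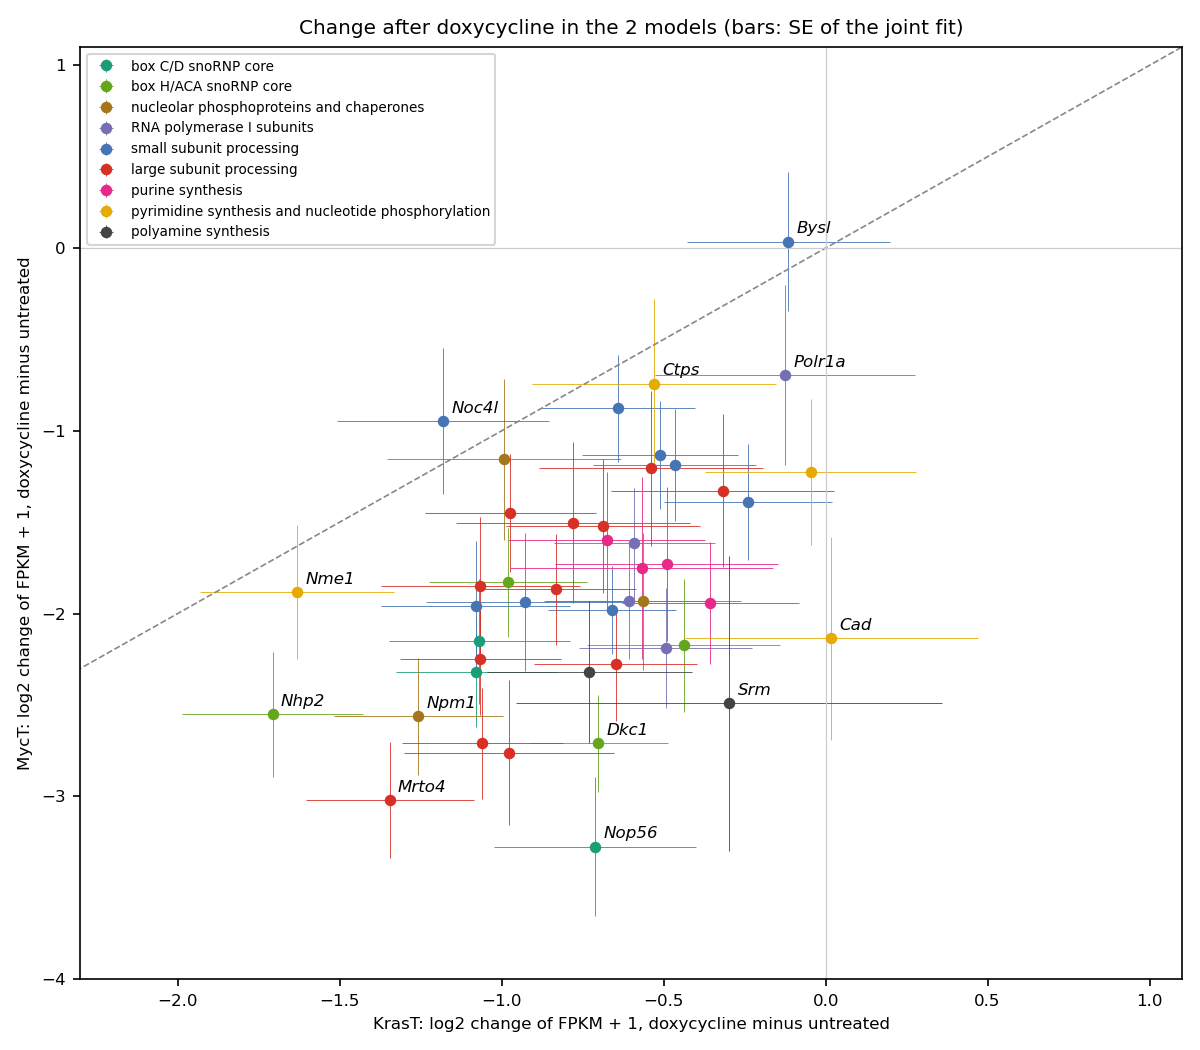
Log2 change of FPKM + 1 (doxycycline minus untreated) in KrasT on the x axis and in MycT on the y axis, 1 point per member coloured by role, with bars of 1 SE from the joint fit. Points under the dashed line of equal change have the more negative value in MycT, and 43 of 45 lie there, with Noc4l and Bysl above it.

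Other measures moved along with the members. Many markers of other cell types were higher after doxycycline. In KrasT 22 of 50 tested markers of 9 cell types rose and 2, both ductal or epithelial, fell. In the MycT joint fit 16 of 46 rose and 0 fell. The summed level of 8 fibroblast genes went from 327–717 to 3879–9121 FPKM in KrasT and from 36.6–452 to 1633–2341 FPKM in MycT. That of 6 endothelial genes went from 9.99–16.2 to 49.5–122 FPKM and from 5.07–17.6 to 40.8–82.6 FPKM. Macrophage genes (6) went from 73.6–794 to 1159–3848 FPKM in KrasT and overlapped in MycT (1137–2992 and 2036–4477 FPKM). Adipocyte genes (5) were higher in every doxycycline library, at 198–2981 FPKM against 13.7–54.2 FPKM in KrasT and 456–1573 FPKM against 107–129 FPKM in MycT. Islet genes (5) were at 7218, 39.4 and 2459 FPKM after doxycycline in KrasT, against 0.187–60.8 FPKM untreated, and at 18.7–678 FPKM against 0–1.41 FPKM in MycT. Acinar genes (8) overlapped in both models. They were at 24.3, 382 and 176 FPKM untreated and 321, 137 and 14780 FPKM after doxycycline in KrasT. In MycT they were at 359 and 97.7 FPKM against 105 and 1661 FPKM. Muscle genes (6) were at 413, 3.74 and 3.24 FPKM untreated and 64.5, 5318 and 274 FPKM after doxycycline in KrasT. In MycT the muscle sums were 7.13 and 5.09 FPKM against 6423 and 8.83 FPKM. No acinar or muscle gene was called in KrasT or in the MycT joint fit. The acinar gene Amy2a5 was listed at 0 in 5 of 6 KrasT and 4 of 4 MycT libraries and the islet genes Ins1, Sst and Ppy in both untreated MycT libraries. The 6 ductal and epithelial genes were detected in every library. Pancreas without a tumour was not among the libraries, so this detection does not check the tumour label. The sum of the 6 genes went from 2350–18020 to 263–1624 FPKM in KrasT. Krt8 and Krt18 were the 2 that fell there, and the groups of Krt19, Krt7, Epcam and Cdh1 overlapped. KrasT untreated replicate 1 differed from the other untreated tumours. Its Epcam (7.22 FPKM), Cdh1 (4.67 FPKM) and Krt7 (7.1 FPKM) lay below every KrasT doxycycline library. In MycT the sums of the 6 genes overlapped, at 479–1155 FPKM untreated and 770–1631 FPKM after doxycycline, while the member sums there did not overlap. Of 12 mitotic genes 8 fell in KrasT and 12 in the MycT joint fit, and their sum went from 111–221 to 18.1–35.1 FPKM in KrasT and from 672–958 to 29.1–117 FPKM in MycT. The part of cell composition and of dividing cells in the members' change was not tested.

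Library composition also differed. Total FPKM was 789700 to 1019000 in untreated and 513900 to 569300 in doxycycline KrasT libraries. In MycT it was 1127000 to 1517000 against 546000 to 557200. Of all FPKM, members held 0.235% to 0.2745% in untreated and 0.187% to 0.2333% in doxycycline KrasT libraries, so the groups nearly met. In MycT they held 0.552% and 0.476% against 0.226% and 0.281%. Ribosomal protein genes (89) took 26.5% to 34.4% of all FPKM in untreated and 15.2% to 25.9% in doxycycline KrasT libraries, and 46.2% and 49.4% against 21.7% and 21.4% in MycT. With those genes left out of the total, members held 0.349% to 0.374% of untreated and 0.224% to 0.31% of doxycycline FPKM in KrasT, and 1.03% and 0.941% against 0.288% and 0.357% in MycT. The groups did not overlap in either share, and the part of library composition in the members' change was not tested. Rn45s, the precursor of ribosomal RNA, was at 17240 FPKM in KrasT doxycycline replicate 1 and 20880 FPKM in MycT doxycycline replicate 2, and at 546 to 2231 FPKM in the other 8 libraries. Without the first, 1 member passed in KrasT, where 130 of 12055 genes fell. Without the second, the median log2 change of the members in MycT was -2.03. Read depth is unknown, and estimated relative depth was 0.756 to 1.188 of untreated replicate 1 in KrasT and 0.621 to 1.0 of untreated replicate 2 in MycT. Myc was at 26.3, 73.1 and 36.6 FPKM in untreated and 12.5, 7.84 and 6.3 FPKM in doxycycline KrasT libraries. In MycT it was at 0.398 and 2.85 FPKM untreated and 9.54 and 8.98 FPKM after doxycycline, and whether transgene reads count under this symbol is not stated, so it does not check the labels.

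The box C/D snoRNP core, which guides methylation of ribosomal RNA, had 2 of 3 members lower in KrasT and 3 of 3 in the MycT joint fit. Over all genes 8.25% fell in KrasT and 12.3% in that joint fit. The counts of this and the following roles are to be read against those shares. Fbl codes for fibrillarin, the methyltransferase of this particle. It was at 85.7, 110 and 80.2 FPKM in untreated KrasT and 49.5, 35.4 and 45.1 FPKM after doxycycline, a log2 change of -1.07 ± 0.25 (SE, limma adjusted p = 0.0325). The MycT values were 319 and 251 FPKM untreated and 47.8 and 82.7 FPKM after doxycycline. Groups did not overlap in either model. Nop58, a scaffold of the same particle, was at 26.6, 40.9 and 41.2 FPKM untreated and 15.8, 19.6 and 14.0 FPKM after doxycycline in KrasT (log2 change -1.08 ± 0.28 SE, limma adjusted p = 0.0418). Its MycT values were 105 and 99.4 FPKM untreated against 20.6 and 18.8 FPKM. Nop56, the partner scaffold, had the largest MycT change of all members. It was at 312 and 289 FPKM untreated and 26.1 and 34.9 FPKM after doxycycline, 9.87-fold lower (log2 change -3.27 ± 0.38 SE, limma adjusted p = 0.00503 in the joint fit and 0.0638 in MycT alone). In KrasT the Nop56 groups overlapped, at 51.6, 41.4 and 22.9 FPKM against 18.9, 23.8 and 23.5 FPKM (log2 change -0.71 ± 0.34 SE, limma adjusted p = 0.188). Its interaction term was -2.56 ± 0.49 (SE, limma adjusted p = 0.067).

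The box H/ACA core, which guides pseudouridylation, had 2 of 4 members lower in KrasT and 4 of 4 in the MycT joint fit. Nhp2, an RNA-binding core protein, had the largest KrasT change of all members. Its untreated KrasT values were 129, 129 and 94.6 FPKM, and those after doxycycline were 36.0, 32.2 and 36.8 FPKM, with no overlap and a log2 change of -1.71 ± 0.23 (SE, limma adjusted p = 0.0103). That call held in 3 of the 6 fits that leave out 1 library, more than for any other member; the other 11 calls held in 1. In MycT Nhp2 went from 368 and 490 FPKM to 53.1 and 96.4 FPKM. Dkc1, the pseudouridine synthase dyskerin, varied little within groups. It was at 11.9, 11.7 and 10.3 FPKM in untreated KrasT and 6.62, 7.58 and 5.53 FPKM after doxycycline (limma adjusted p = 0.0946). In MycT it was at 61.3 and 59.7 FPKM untreated and 7.98 and 8.82 FPKM after doxycycline, a log2 change of -2.71 ± 0.26 (SE, limma joint adjusted p = 0.00503). Untreated MycT tumours thus held more Dkc1 than untreated KrasT tumours in these 2 tables, and the doxycycline values of the models lay close together. Gar1 fell in KrasT too, and Nop10 had overlapping KrasT groups and a log2 change of -0.44 that turned to 0.09 under quantile normalization.

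Among the 3 nucleolar phosphoproteins, Npm1 fell in KrasT, and Npm1 and Nolc1 fell in the MycT joint fit. Npm1, a histone and ribosome chaperone, was at 829, 668 and 656 FPKM in untreated KrasT and 255, 377 and 275 FPKM after doxycycline (log2 change -1.26 ± 0.26 SE, limma adjusted p = 0.0245). MycT libraries held 1818 and 2753 FPKM untreated and 366 and 390 FPKM after doxycycline (log2 change -2.56 ± 0.32 SE, limma joint adjusted p = 0.00503). Groups did not overlap, but Npm1 has many processed pseudogenes, and how shared reads were counted is not stated. Ncl, nucleolin, had a log2 change of -0.99 in KrasT and -1.16 in MycT, with no overlap and no call in either model.

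Of the RNA polymerase I subunits among the members, 0 of 4 passed in KrasT, near the 8.25% of all genes that fell there. In the MycT joint fit 3 of 4 fell, against 12.3% of all genes. Polr1c, a subunit shared with RNA polymerase III, was at 132 and 99.5 FPKM in untreated MycT and 23.6 and 25.2 FPKM after doxycycline (log2 change -2.19 ± 0.33 SE, limma joint adjusted p = 0.00624). In KrasT its groups overlapped, at 62.9, 48.6 and 39.9 FPKM against 26.7, 40.2 and 39.5 FPKM. Polr1e was low throughout. Its values were 3.59, 4.58 and 3.17 FPKM untreated and 1.7, 2.48 and 2.33 FPKM after doxycycline in KrasT, without overlap (limma adjusted p = 0.159), and 10.1 and 7.44 FPKM against 1.89 and 2.46 FPKM in MycT. Polr1a, the catalytic large subunit, overlapped in both models and passed in neither.

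Small subunit factors had 1 of 9 members lower in KrasT, near the 8.25% of all genes that fell there, and 6 of 9 in the MycT joint fit, against 12.3% of all genes. The KrasT call was Noc4l, a nucleolar complex protein, at 12.5, 25.3 and 19.8 FPKM untreated and 7.93, 6.92 and 7.96 FPKM after doxycycline (log2 change -1.18 ± 0.31 SE, limma adjusted p = 0.0442). Its MycT groups did not overlap either, at 21.9 and 35.6 FPKM against 10.9 and 17.8 FPKM, but it was not called there (limma joint adjusted p = 0.121). Wdr43, a component of the processome on the early precursor, held tight groups. It was at 49.7 and 53.0 FPKM in untreated MycT and 12.8 and 11.8 FPKM after doxycycline (log2 change -1.98 ± 0.24 SE, limma joint adjusted p = 0.00503). In KrasT it was at 18.6, 17.3 and 16.9 FPKM against 10.8, 11.4 and 10.1 FPKM (limma adjusted p = 0.0844). Bysl, bystin, which acts late in the small subunit, was the member with a positive MycT change. It was at 8.09 and 5.82 FPKM untreated and 5.77 and 8.61 FPKM after doxycycline in MycT, and at 7.34, 9.94 and 6.14 FPKM against 9.97, 5.1 and 6.67 FPKM in KrasT. Its groups overlapped in both models, with log2 changes of 0.03 ± 0.38 and -0.11 ± 0.32 (SE), whose signs turned under other scalings. Apart from Bysl and Noc4l, the other 7 small subunit members had MycT log2 changes of -0.88 (Nop14) to -1.98 (Wdr43).

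Large subunit factors had 5 of 12 members lower in KrasT and 10 of 12 in the MycT joint fit. Mrto4, an assembly factor related to a ribosomal stalk protein, fell most. It was at 71.3, 43.8 and 42.6 FPKM in untreated KrasT and 19.3, 20.2 and 19.0 FPKM after doxycycline (log2 change -1.35 ± 0.27 SE, limma adjusted p = 0.0235). In MycT it was at 237 and 267 FPKM untreated and 25.9 and 34.9 FPKM after doxycycline, 8.29-fold lower (log2 change -3.02 ± 0.32 SE, limma joint adjusted p = 0.00503). The Mrto4 promoter window held no CACGTG. Gnl3, the nucleolar GTPase nucleostemin, was at 48.4, 27.9 and 35.7 FPKM untreated and 17.6, 18.7 and 14.8 FPKM after doxycycline in KrasT (limma adjusted p = 0.0438). Its MycT values were 153 and 156 FPKM untreated against 22.1 and 23.4 FPKM (log2 change -2.71 ± 0.30 SE, limma joint adjusted p = 0.00503). Pes1, Bop1 and Wdr12 form one complex. In KrasT Pes1 fell (log2 change -0.97), while Wdr12 (-0.65) and Bop1 (-0.32) did not pass. In the MycT joint fit Pes1 (-1.45) and Wdr12 (-2.28) fell, and Bop1 (-1.33) narrowly did not pass (limma adjusted p = 0.0539). Differences among the 3 were not tested.

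**Figure D3:**
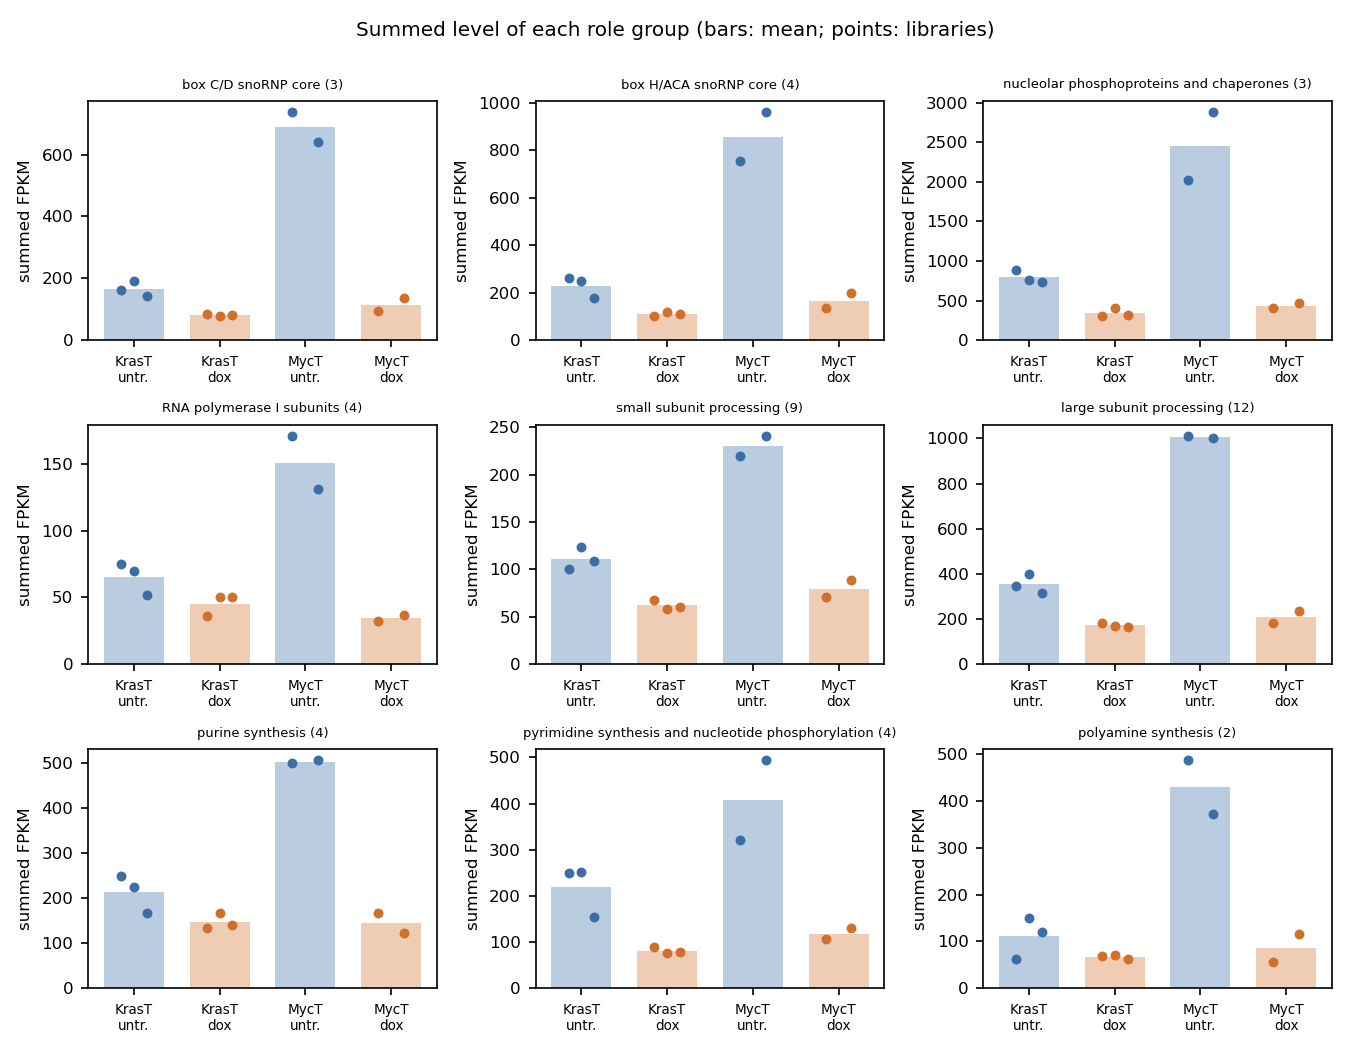
Summed FPKM of the members of each role, with bars for the group mean and points for the libraries, 1 panel per role and axes from 0 that differ between panels. In each of the 9 panels both untreated MycT points lie above all other points.

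Purine enzymes build the purine ring and convert it to guanine nucleotides. In KrasT 0 of 4 were lower, near the 8.25% of all genes that fell there. In the MycT joint fit 4 of 4 were lower, against 12.3% of all genes. Impdh2, the rate-limiting enzyme toward guanine nucleotides, was at 226 and 167 FPKM in untreated MycT and 45.2 and 54.7 FPKM after doxycycline (log2 change -1.94 ± 0.33 SE, limma joint adjusted p = 0.00796). In KrasT it was at 63.2, 109 and 62.8 FPKM against 61.9, 58.3 and 56.8 FPKM, and only untreated replicate 2 lay well above the doxycycline values (log2 change -0.36 ± 0.28 SE, limma adjusted p = 0.413, and 0.15 under quantile normalization). Ppat, the enzyme of the committed step, was at 4.04, 9.5 and 6.99 FPKM untreated and 3.5, 4.64 and 3.08 FPKM after doxycycline in KrasT, with overlap (limma adjusted p = 0.218). MycT values were 19.0 and 19.6 FPKM against 6.26 and 5.19 FPKM (limma joint adjusted p = 0.0203). Ppat and Paics start 276 bases apart on opposite strands and overlap in the RefSeq table, so without stated strand counting their values may share reads.

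In KrasT Nme1 fell and the other 3 pyrimidine and nucleotide enzymes did not pass, and in the MycT joint fit Cad and Nme1 fell. Over all genes 8.25% and 12.3% fell in these fits, and differences among the enzymes were not tested. Nme1, a nucleoside diphosphate kinase, was at 232, 203 and 131 FPKM in untreated KrasT and 67.4, 53.9 and 55.3 FPKM after doxycycline (log2 change -1.63 ± 0.28 SE, limma adjusted p = 0.017). MycT libraries were at 247 and 421 FPKM against 78.0 and 96.5 FPKM (log2 change -1.88 ± 0.37 SE, limma joint adjusted p = 0.0115). Its neighbour Nme2 is a closely related gene, and how any reads shared between them were counted is not stated. Cad carries out the first steps of pyrimidine synthesis. It was at 22.0 and 18.3 FPKM in untreated MycT and 2.21 and 6.14 FPKM after doxycycline (log2 change -2.14 ± 0.56 SE, limma joint adjusted p = 0.0287). In KrasT it was at 2.39, 8.41 and 2.68 FPKM untreated and 5.08, 2.95 and 4.06 FPKM after doxycycline, with overlap and a log2 change of 0.02 ± 0.45 (SE), the one positive change of a member there, which was -0.30 under quantile normalization. The interaction of Cad did not pass (limma adjusted p = 0.15). Umps and Ctps, the enzymes that complete UMP and make CTP, had log2 changes of -0.05 and -0.53 in KrasT and -1.23 and -0.74 in MycT and did not pass in either. Umps was near the threshold in the MycT joint fit (limma adjusted p = 0.0582).

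Of the 2 polyamine enzymes, Odc1 fell in the MycT joint fit and neither passed in KrasT. Odc1, ornithine decarboxylase, the rate-limiting step, was at 260 and 279 FPKM in untreated MycT and 45.3 and 62.1 FPKM after doxycycline (log2 change -2.32 ± 0.39 SE, limma joint adjusted p = 0.00759). In KrasT it was at 49.9, 102 and 103 FPKM against 42.7, 58.2 and 45.2 FPKM, with untreated replicate 1 inside the doxycycline range. Srm, spermidine synthase, had a log2 change of -2.49 ± 0.81 (SE) in MycT, where its libraries spread widely, at 226 and 92.8 FPKM untreated and 11.3 and 54.0 FPKM after doxycycline (limma joint adjusted p = 0.0572).

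Values of members with and without CACGTG in the promoter window are given side by side, and their difference was not tested. The median MycT log2 change was -1.82 for the 8 members with it and -1.93 for the 31 with an entry and without it. In KrasT the medians were -0.61 and -0.69. In the MycT joint fit 7 of 8 and 24 of 31 fell, and in KrasT 2 of 8 (Nme1 and Pes1) and 8 of 31 did. Bases outside that window were not searched, so a member counted as without CACGTG may hold it elsewhere. The 6 members without an entry (Npm1, Fbl, Rrp12, Rrs1, Bop1 and Srm) were not searched and are in neither group. These values are descriptions, and neither presence nor absence of the letters in the window says anything on binding.

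**Figure D4:**
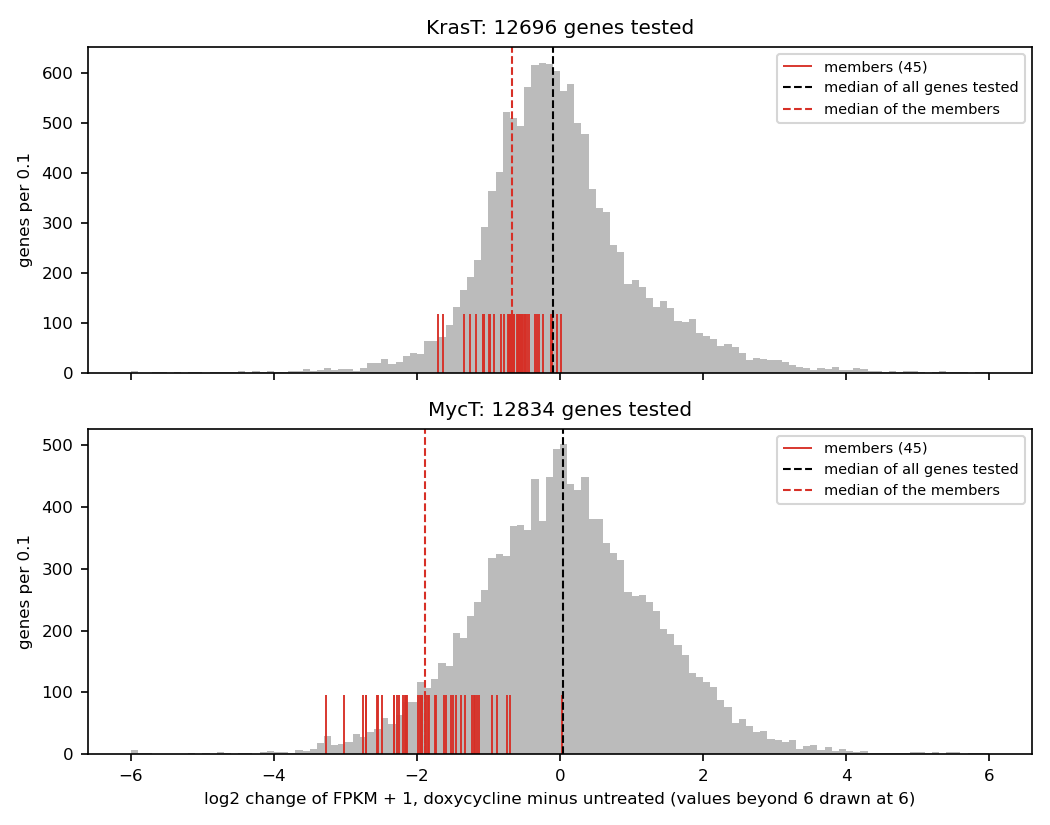
Distribution of the log2 change of FPKM + 1 over all genes tested (grey, bins of 0.1), in KrasT above and MycT below, with a red tick for each member, a dashed red line at the member median and a dashed black line at the median of all genes. The member median lies at -0.68 against -0.10 in KrasT and at -1.88 against 0.04 in MycT.

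The rest of the pathway, 113 tested genes on 7 lists, had 32 lower and 0 higher in KrasT and 66 lower and 1 higher in the MycT joint fit. Over all genes 8.25% fell and 8.46% rose in KrasT, and 12.3% fell and 8.11% rose in the joint fit, and the lists that follow are to be read against those shares. The median log2 change of these genes was -0.73 in KrasT and -1.23 in MycT. In KrasT the members' median of -0.68 was close to this, and in MycT the members' median of -1.88 was the more negative; neither contrast was tested. Large subunit factors outside the members had 13 of 31 lower in KrasT and 22 of 31 in the MycT joint fit. Rsl1d1, a nucleolar protein, fell in both, from 80.1 to 31.2 FPKM as group means in KrasT (log2 change -1.34) and by a log2 change of -2.10 in MycT. Las1l, a subunit of the complex that cuts the second internal spacer, had a larger change in KrasT than in MycT. It was at 51.3, 92.2 and 105 FPKM untreated and 12.5, 13.9 and 16.3 FPKM after doxycycline in KrasT (limma adjusted p = 0.0101), and at 22.7 and 20.4 FPKM against 15.1 and 18.1 FPKM in MycT. Its interaction did not pass (limma adjusted p = 0.0714). Small subunit factors had 7 of 33 and 22 of 33 lower, with Wdr36 falling by 1.46 on the log2 scale in KrasT and Dimt1 by 2.40 in MycT. The snoRNP assembly factors had 0 of 9 lower in KrasT and 7 of 9 in MycT, led by Znhit3 at -3.29. Other polymerase I machinery had 3 of 10 and 4 of 10 lower, with Polr1d, Twistnb and Taf1d called in both models.

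Nucleotide and polyamine genes outside the members were mixed. Purine genes had 4 of 13 lower in KrasT, led by Adss (-1.67) and Aprt (-1.81), and 6 of 13 lower in the MycT joint fit, led by Adsl (-2.20) and Prps1 (-2.02). Of the 8 pyrimidine genes, Upp1, Cmpk1 and Nme2 fell in KrasT and Nme2 (-2.88) and Dhodh (-2.38) in MycT. Dhodh, the mitochondrial step of pyrimidine synthesis, was at 28.8 and 36.8 FPKM in untreated MycT and 3.94 and 7.37 FPKM after doxycycline, and at 6.75, 4.17 and 2.28 FPKM against 4.71, 5.83 and 5.6 FPKM in KrasT. Its KrasT groups overlapped. Polyamine genes outside the members had 2 of 9 lower in KrasT and 3 of 9 lower in the MycT joint fit. Among them Sms, spermine synthase, fell in KrasT (-2.16) and in the MycT joint fit (-2.09), and Paox, a polyamine oxidase, fell in KrasT (-2.71). The antizyme genes, whose products restrain ornithine decarboxylase, did not pass: Oaz1 changed by -0.21 in KrasT and -0.44 in MycT, and Oaz2 by 0.17 and 1.18. The breakdown genes Sat1, Sat2 and Smox passed in neither model, with MycT values of 0.13, 0.07 and 1.05.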

How the data were processed

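Total RNA from flash-frozen tumours was sequenced after TruSeq RNA library preparation on a HiSeq2000, per the labels' protocols. The authors deposited FPKM per gene in 2 tables, 1 per model. The build mm9 and the tools cutadapt and TopHat are named, with no versions, per the submitters' processing notes. For the FPKM program, annotation and strand handling: not given in the sources used here. Each table had 23951 rows, of which 27 with symbols turned into dates were left out. One untreated MycT column carried an animal number that matches no label and was used as an untreated MycT library with no number. Genes with at least 1 FPKM in 3 KrasT or 2 MycT libraries were fitted as log2(FPKM + 1), a scale that understates changes of low genes, with limma 3.58.1 under R 4.3.3, using eBayes with a mean trend, two-sided p-values and Benjamini-Hochberg adjustment over all genes, called under 0.05. MycT, and the difference between models as an interaction term, were also fitted over both tables. An exact permutation test could reach 0.1 at best with 3 against 3 and 0.333 with 2 against 2. Alternatives were another pseudocount, other filters, scalings and spread estimates, and leaving out each library. Joint fits with other scalings or without a library were added after seeing the data. Members and lists were chosen with earlier results of these data known. Per role, the members of smallest p in each model, and those with a positive change, are given in every library; per other list, up to 2 genes of smallest p per model and the polyamine breakdown and antizyme genes. Promoters came from RefSeq (GRCm38.p6), matched by symbol. Plots used matplotlib 3.10.9 under Python 3.11.15. The steps were tested on simulated data.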

Additional observations from a re-analysis of the deposited data

How the results depend on the processing

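No paired analysis was possible because the replicate numbers only follow the order of the samples and tie no tumours together. No member rose past the threshold (limma adjusted p under 0.05) under any setting tried. In KrasT, against 12 members lower, 5 were lower under median-ratio scaling, 3 under quantile normalization, 26 with library weights and 1 without the library of highest Rn45s, and 0 to 21 when each library was left out. In the joint fit, KrasT had 7 lower with median-ratio scaling and 7 with quantile normalization. Leaving out untreated replicates 1, 2 and 3 there gave 21, 4 and 4, and leaving out doxycycline replicates 1, 2 and 3 gave 2, 4 and 0. MycT, with 0 lower on its own table, had 35 lower in the joint fit, 35 with median-ratio scaling and 33 with quantile normalization. Without untreated replicate 2, the library with no number, and doxycycline replicates 1 and 2 the joint fit gave 22, 28, 15 and 23. On the MycT table alone these fits gave 0 to 15, with 1 library left in a group assumed to vary like the other group. The difference between models, with 0 members more negative in MycT, gave 1 with no filter on low values and 9 with library weights, and 0 to 9 when each library was left out. The cause of these shifts was not tested.

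Log2 changes turned sign for some members. In KrasT, Nop10 was 0.0884, Impdh2 0.15 and Cad -0.30 under quantile normalization, and Bysl was 0.0016 and Umps 0.0701 under median-ratio scaling. Cad was -0.11 with library weights and -0.13 without the library of highest Rn45s. In MycT, Bysl was -0.10 under quantile normalization and -0.22 without the library of highest Rn45s. The difference for Ctps was 0.0058 with library weights. When each library was left out, the KrasT change ran from -0.39 to 0.26 for Polr1a, -0.34 to 0.0813 for Bysl, -0.57 to 0.0052 for Bop1, -0.25 to 0.49 for Cad, -0.30 to 0.22 for Umps and -0.66 to 0.24 for Srm. For Bysl in MycT it ran from -0.22 to 0.29. The difference ran from -0.64 to 0.31 for Ncl, -0.11 to 0.57 for Noc4l, -0.10 to 0.40 for Bysl, -0.62 to 0.20 for Ctps and -0.63 to 0.13 for Nme1. Depth in reads is unknown, so no counting error could be set on low members such as Rrp12 and Polr1e.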

Other observations

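Some genes of the same pathways moved unlike the members; these were chosen after their values were seen. Adssl1, the muscle form of adenylosuccinate synthase, rose in the MycT joint fit, from 1.74 and 2.66 FPKM untreated to 31.8 and 11.1 FPKM after doxycycline (log2 change 2.66 ± 0.66 SE, limma joint adjusted p = 0.0246). Its KrasT groups overlapped, at 54.0, 48.2 and 26.3 FPKM against 18.4, 29.3 and 7.64 FPKM. The summed level of 6 skeletal muscle genes was 7.13 and 5.09 FPKM in untreated MycT libraries and 6423 and 8.83 FPKM after doxycycline, and its part in the Adssl1 values was not tested. Upp1, uridine phosphorylase, which breaks uridine down, fell in KrasT from 43.7, 106 and 87.8 FPKM to 9.87, 12.2 and 8.99 FPKM (log2 change -2.74 ± 0.37 SE, limma adjusted p = 0.0102). Its MycT groups overlapped, at 1.8 and 11.7 FPKM untreated against 7.76 and 12.2 FPKM, and the difference between models did not pass (limma adjusted p = 0.0756).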
